A study of Homo sapiens with 6 samples.

Results

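The genes described here run 3 protein folding and nutrient stress programmes of the cell: the unfolded protein response of the endoplasmic reticulum, the ATF4 arm that it shares with the amino acid response, and the cytosolic heat shock response, with the mitochondrial chaperones beside them. They were taken as a list of 48 gene symbols, matched by name or Entrez gene ID to the array. The array carried 47 of them in 93 probe sets, out of 45033 probe sets and 23596 named genes in all. Of the 47 genes, 31 had several probe sets and 16 had 1. HSPA1B had no probe set under its own name.

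The cells were HEK293, an established embryonic kidney line of human origin, and their mRNA was measured on 6 one-colour NimbleGen arrays in 3 groups of 2. All cells had been transfected with a short hairpin RNA (shRNA) about 40 hours before a conditioned medium was added for 7 hours. The control group received a control shRNA and control medium, the Wnt3a group the control shRNA and Wnt3a medium, and the SET8 group an shRNA to SET8 and Wnt3a medium. SET8, named KMT5A and formerly SETD8, is the enzyme that places a single methyl group on lysine 20 of histone H4, and the study asked about its part in the response to Wnt3a, a secreted ligand that acts through beta-catenin. The series title and design text call the same treatment siRNA, and the labels name neither the cells that made the conditioned media nor the shRNA sequence. No array held SET8 shRNA in control medium, so an effect of SET8 shRNA outside Wnt3a medium was not analysed here. The labels do not say whether the 2 arrays of a group came from separate cultures, so a p-value here sets a difference against the spread between arrays alone, and that spread may be technical.

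In the unfolded protein response, the sensors IRE1 (ERN1), PERK (EIF2AK3) and ATF6 sit in the endoplasmic reticulum membrane and are held quiet by the chaperone BiP (HSPA5) until unfolded protein accumulates. IRE1 then splices XBP1 mRNA, ATF6 is released to the nucleus, and both factors switch on chaperones and degradation genes through promoter elements called ERSE. PERK, like the amino acid sensor GCN2 (EIF2AK4), phosphorylates eIF2alpha, which slows translation in general and favours translation of ATF4, the activator of amino acid synthesis and transport genes. The heat shock factor HSF1 responds to unfolded protein in the cytosol through heat shock elements.

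All values are log2 of the deposited array intensity. Differences are log2 fold changes with the standard error (SE) of a limma fit over all 6 arrays, and adjusted p-values follow Benjamini-Hochberg over the 23808 probe sets tested. A probe set was tested if it was above its array's median in at least 2 of 6 arrays. Of the 47 genes, 44 passed, 43 of them above the median in all 6 arrays. The other is EIF2AK3. The chaperone co-factors DNAJB9 and DNAJC3 and the cystine transporter SLC7A11 were too dim to be tested. Each gene is represented by its brightest probe set unless another is named, and levels of different probe sets are not compared.

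Replicate arrays correlated at 0.964 in the control group, 0.955 in the Wnt3a group and 0.978 in the SET8 group. The brighter KMT5A probe set read 11.20 and 10.53 in the Wnt3a group and 8.97 and 9.65 in the SET8 group, a difference of -1.56 (SE 0.34, 2.94-fold lower, limma adjusted p = 0.24). Of 11 markers of the HEK293 line, 10 were tested and INA was too dim. Their summed level was 15.91 to 16.06 (log2) on every array. In that sum the brightest genes, KRT8 among them, weigh most. Both SET8 arrays lay above both Wnt3a arrays for 5 of the 11 and below for 2, where 16.3% and 17.3% of all genes did. NEFL stood at 0.64 (SE 0.25) and NEFM at -0.46 (SE 0.22) with SET8 shRNA. Of 8 fibroblast markers, 6 were too dim, and the summed level was 12.56 to 12.79 on the control shRNA arrays against 12.29 and 12.17 with SET8 shRNA. COL1A1, the brightest (0.28 with Wnt3a medium), carried most of that sum. For 6 of the 8, both Wnt3a arrays were below both control arrays, where 11.7% of all genes on the array were. COL3A1 was among them (-0.85, SE 0.34), and the rest of the 6 were too dim to be tested. The median log2 difference over the 8 was -1.10 with Wnt3a medium and -0.06 with SET8 shRNA, and rests mostly on dim probe sets. Of 7 blood markers on the array, CD3E, LYZ and PTPRC were too dim. The summed level was 11.06 to 11.44 on the control shRNA arrays against 10.42 on both SET8 arrays. Both SET8 arrays lay below both Wnt3a arrays for 4 of the 7 and above for 0, where 17.3% and 16.3% of all genes did. These were HBA1 (-1.65, SE 0.38), HBA2 (-1.12, SE 0.23), CD68 (-1.07, SE 0.26) and the dim PTPRC (-0.64). CD14 (0.02) and the dim CD3E (0.53) and LYZ (0.21) did not fall, and overlapped. The part of these marker differences in the results below was not tested, and in bulk RNA fewer cells of a type and less RNA per cell cannot be told apart.

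With Wnt3a medium, none of the 44 tested genes passed an adjusted p under 0.05, where 0% of all probe sets tested did so. A single gene, the transcription factor ATF5, was lower at an unadjusted limma p under 0.05, where 1.73% of genes tested were higher and 0.567% lower at that level. Differences leaned slightly upward, with 32 of the 47 genes higher and a median of 0.06, beside 52.8% of all genes higher and a median of 0.02. That lean turned when arrays were centred on their medians, which left 22 of the 47 genes and 42.9% of all genes higher and a median of -0.01 for the 47. Both Wnt3a arrays were above both control arrays for 9 of the 47 genes and below for 3, where 15.0% and 11.7% of all genes on the array were. These counts stand at or near the background.

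ATF5, on chromosome 19 (chr19:55124271-55129003, hg18), is a relative of ATF4 that is translated under stress and drives mitochondrial and amino acid stress genes. Its probe set read 13.55 and 13.49 in the control group, 12.37 and 12.68 in the Wnt3a group, and 13.58 and 13.13 in the SET8 group. The Wnt3a arrays stood below all 4 others, which overlapped. With Wnt3a medium it was 1.99-fold lower (SE 0.26 on the log2 scale, limma adjusted p = 1), and the log2 difference of SET8 shRNA against control shRNA in Wnt3a medium was 0.83 (SE 0.26, adjusted p = 0.47). A second ATF5 probe set read 13.30 and 13.19, then 12.12 and 12.72, then 13.39 and 13.34, with differences of -0.82 (SE 0.27) and 0.94 (SE 0.27). In both probe sets the Wnt3a arrays were the lowest. Because both differences use the same 2 Wnt3a arrays, they are not independent of each other.

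The cystine transporter SLC7A11, which imports the precursor of glutathione, stood highest in the Wnt3a group in 2 of its 3 probe sets, all of them dim. Its brightest probe set read 6.29 and 6.14 in the control group, 7.23 and 7.27 in the Wnt3a group, and 6.24 and 6.35 in the SET8 group. The difference was 1.03 with Wnt3a medium and -0.96 with SET8 shRNA. Another read 5.48 and 5.10, then 6.87 and 7.16, then 6.55 and 5.94, giving 1.73 and -0.77. The remaining one went the other way with Wnt3a medium, at -0.29, and overlapped in both comparisons. When the filter on dim probe sets was left out, the limma adjusted p with Wnt3a medium was 1 and 0.96 for the first and second, and with SET8 shRNA 0.71 and 0.99.

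Other genes whose Wnt3a and control arrays did not overlap were HSPH1, the cytosolic exchange factor of HSP70, at 0.59 (SE 0.27), PSPH and CHAC1, described below, and HSPA5, PDIA4, HSPA4, HSP90AB1 and HSPA9, between 0.05 and 0.31. Lower in both Wnt3a arrays, beside ATF5, were PPP1R15A, the phosphatase subunit that ends eIF2alpha signalling, at -0.29 (SE 0.27), and ATF6 at -0.14 (SE 0.25). A second HSPH1 probe set gave 0.10, and a second PPP1R15A probe set -0.07. The adjusted p of each of the 44 tested genes in this comparison was 1 (limma).

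**Figure D1:**
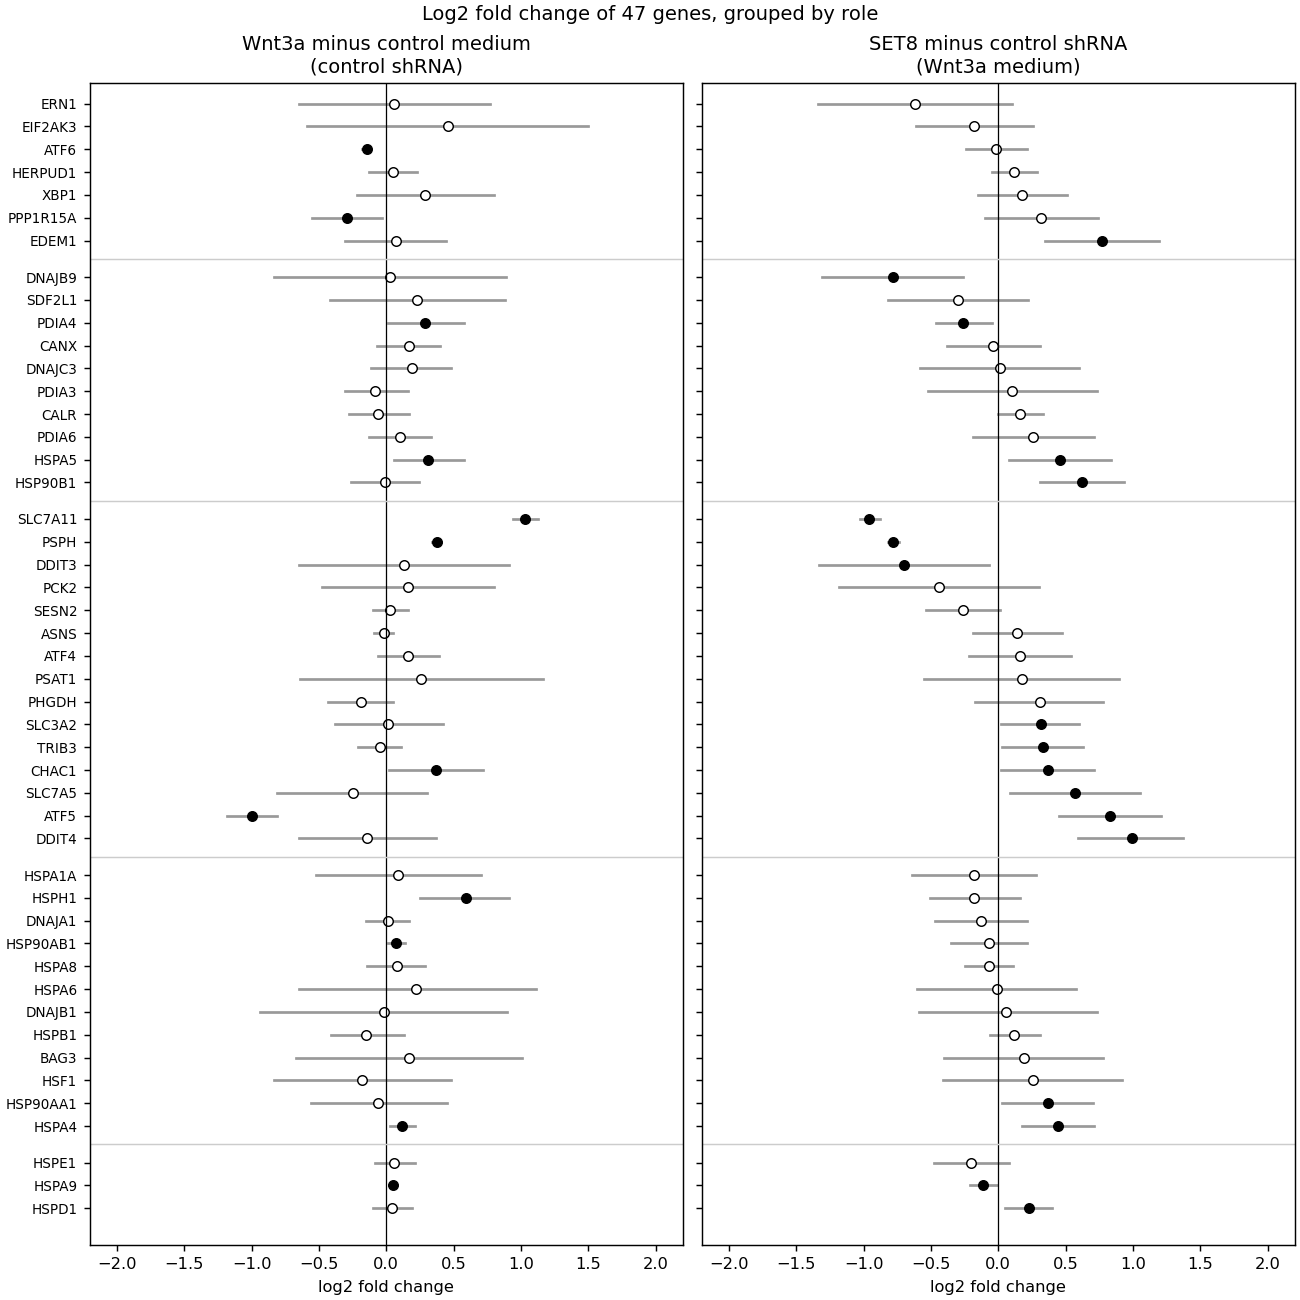
Log2 fold change (horizontal axis) of the brightest probe set of each of the 47 genes, with Wnt3a medium on the left and with SET8 shRNA on the right. Rows are grouped from top to bottom as unfolded protein response sensors and factors, endoplasmic reticulum chaperones, ATF4 arm and amino acid genes, cytosolic heat shock genes and mitochondrial chaperones; grey bars span the 4 differences between single arrays, and filled points mark genes whose groups do not overlap, 12 on the left and 18 on the right.

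With SET8 shRNA in Wnt3a medium, again 0 of the 44 tested genes passed the adjusted threshold, as did 0% of all probe sets tested (limma). The smallest adjusted p among the genes was 0.38. Without adjustment, 4 reached a p under 0.05 as higher (DDIT4, ATF5, EDEM1 and HSP90B1) and 1 as lower (PSPH), where 3.68% of genes tested were higher and 3.69% lower. Over the 47 genes the median was 0.12, beside 0.00 over all genes, with 27 higher and 20 lower, where 49.9% of all genes were higher. The median was -0.01 without SET8 replicate 2, 0.21 without SET8 replicate 1 and 0.00 without Wnt3a replicate 2. Both SET8 arrays were above both Wnt3a arrays for 12 genes and below for 6, against 16.3% and 17.3% of all genes.

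The ATF4 arm did not move as a block with SET8 shRNA. Of its 15 genes, 10 were higher and 5 lower, with a median of 0.18. In 6 the SET8 arrays lay above both Wnt3a arrays (DDIT4, ATF5, SLC7A5, CHAC1, TRIB3 and SLC3A2), and in 3 below (SLC7A11, PSPH and DDIT3). Over all genes on the array the shares above and below were 16.3% and 17.3%.

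DDIT4, also called REDD1, restrains the growth kinase mTORC1 under stress, and lies on chromosome 10 (chr10:73703694-73705794, hg18). It read 10.92 and 11.32 in the control group, 10.67 and 11.29 in the Wnt3a group, and 12.04 and 11.88 in the SET8 group. Both SET8 arrays stood above the other 4, which overlapped. The difference with SET8 shRNA was 0.99 (SE 0.29, 1.98-fold higher, limma adjusted p = 0.44). A second DDIT4 probe set read 9.98 and 9.77, then 9.90 and 9.64, then 10.72 and 10.85, a difference of 1.02 (SE 0.23, 2.02-fold higher, adjusted p = 0.27).

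PSPH makes the last step of serine synthesis, and lies on chromosome 7 (chr7:56046237-56086762, hg18). It read 9.09 and 9.08 in the control group, 9.49 and 9.43 in the Wnt3a group, and 8.67 and 8.69 in the SET8 group. The 3 groups did not overlap, and replicates differed by 0.06 or less on this scale, as the values show. With SET8 shRNA the difference was -0.78 (SE 0.22, 1.72-fold lower, limma adjusted p = 0.38), and with Wnt3a medium 0.38 (SE 0.22, adjusted p = 1). A second, dim PSPH probe set read 6.84 and 6.81, then 6.89 and 6.61, then 6.48 and 6.48, a difference of -0.27 with SET8 shRNA. The enzymes of the preceding steps of the same pathway stood differently, PHGDH at 0.31 (SE 0.28) and PSAT1 at 0.18 (SE 0.47), and in both the groups overlapped.

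ATF4 itself read 13.57 and 13.39 in the control group, 13.78 and 13.51 in the Wnt3a group, and 13.56 and 14.05 in the SET8 group, with all groups overlapping. The difference was 0.16 with Wnt3a medium and 0.16 with SET8 shRNA, each with SE 0.27. A second, dimmer ATF4 probe set read 8.34 and 8.20, then 8.18 and 8.12, then 8.47 and 8.53. There the Wnt3a arrays lay lowest, at -0.12 (SE 0.22) against the control group, and the SET8 arrays highest, at 0.35 (SE 0.22) against the Wnt3a group. ATF4 is controlled mainly at translation, which an mRNA array does not measure. Its partner DDIT3 (CHOP), the pro-apoptotic factor of prolonged stress, read 9.77 and 10.54, then 9.89 and 10.68, then 9.82 and 9.35. The SET8 arrays lay below both Wnt3a arrays but overlapped the control arrays, and the difference was -0.70 (SE 0.38, limma adjusted p = 0.81).

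Among the classical ATF4 targets, asparagine synthetase (ASNS) read 9.75 and 9.76, then 9.80 and 9.67, then 10.14 and 9.61, and differed by 0.14 (SE 0.26) with SET8 shRNA. The groups overlapped. The pseudokinase TRIB3, which feeds back on ATF4, read 9.41 and 9.71, then 9.52 and 9.50, then 10.13 and 9.55, a difference of 0.33 (SE 0.28) carried mostly by the first SET8 array. CHAC1, which degrades glutathione and lies on chromosome 15 (chr15:39032982-39036002, hg18), read 9.76 and 9.64, then 10.36 and 9.78, then 10.49 and 10.38. Its 3 groups did not overlap, by narrow margins, with steps of 0.37 (SE 0.27) for Wnt3a medium and 0.37 (SE 0.27) for SET8 shRNA. Its Wnt3a arrays were the most spread of the 3 groups. The amino acid transporter subunits SLC7A5 and SLC3A2, which pair to import large neutral amino acids, stood at 0.57 (SE 0.32) and 0.32 (SE 0.27) with SET8 shRNA, their SET8 arrays above both Wnt3a arrays. The stress sensor SESN2 and the mitochondrial PEPCK gene PCK2 stood at -0.26 and -0.44 and overlapped, while a second PCK2 probe set, for another transcript, did not overlap at -0.55 (SE 0.23).

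RefSeq promoter windows (GRCh38.p14), from 250 bases before to 50 bases after the start site, were matched to 44 of the 48 genes. These 44 genes had 65 windows. The C/EBP-ATF composite site that ATF4 binds was searched on both strands as TGATGNAAT, which 0.991% of all 35116 windows and none of the 44 genes held. That says only that these letters are not in these windows. The shorter form TGATGNAA, chosen after the longer form gave no match, was in 3.62% of all windows and in 4 of the 65, those of ASNS, CHAC1, SLC3A2 and HERPUD1. It is shown in capitals, on either strand, for the pair of these genes whose values are given above, on chr7:97872449-97872496 (minus strand, motif at positions -68 to -61 from the start site) and chr15:40953242-40953289 (plus strand, motif at -209 to -202).
ASNS: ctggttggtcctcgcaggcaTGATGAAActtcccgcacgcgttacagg
CHAC1: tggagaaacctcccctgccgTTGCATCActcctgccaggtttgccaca
The 4 genes stood between 0.12 and 0.37 with SET8 shRNA, and both SET8 arrays were above both Wnt3a arrays for 2 of them, where 16.3% of all genes were. Between the SET8 and control groups all 4 were higher, with a median of 0.25. In that comparison 33 of the 47 listed genes and 51% of all genes were higher.

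**Figure D2:**
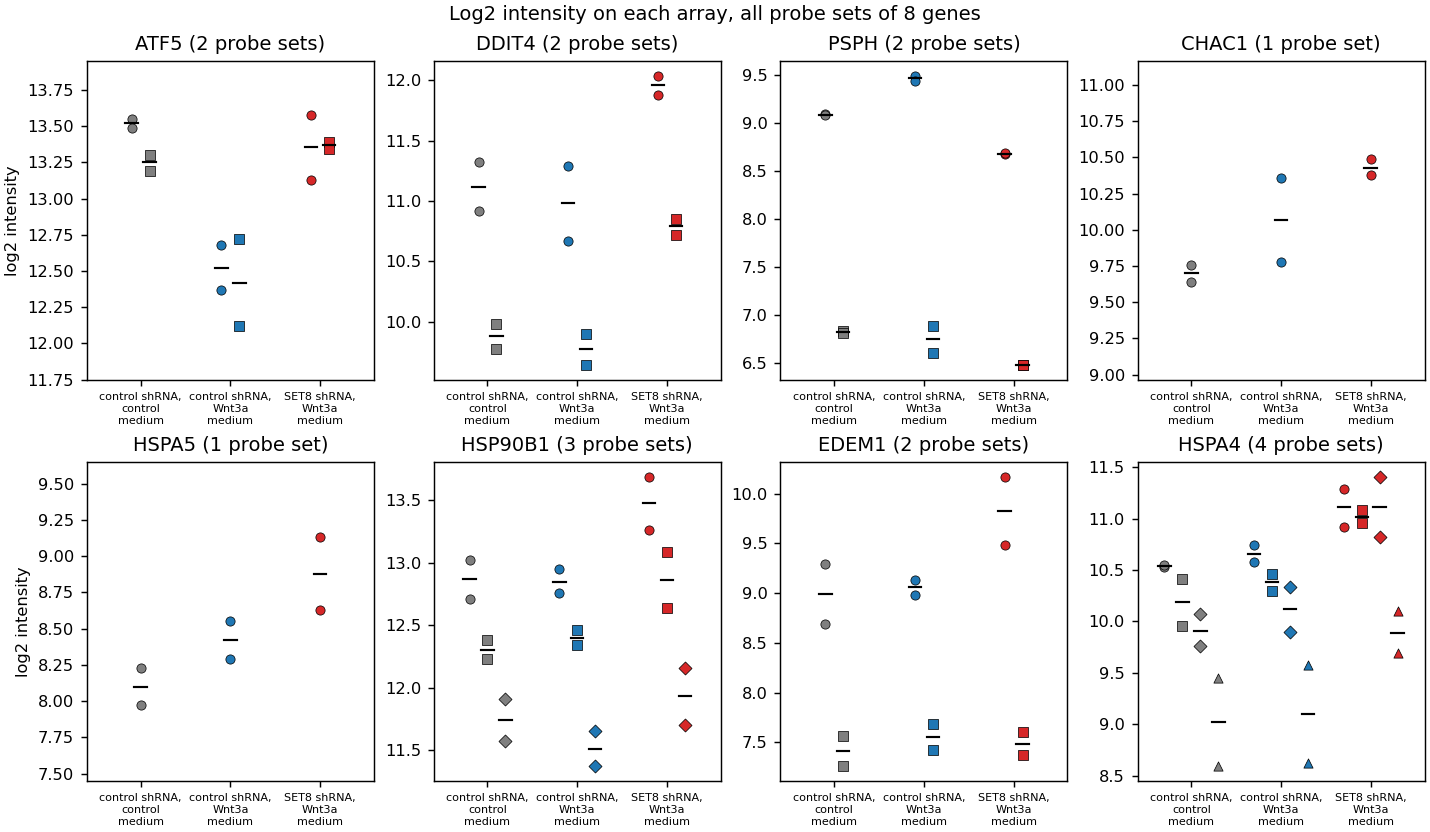
Log2 intensity (vertical axis) on each array for every probe set of the 8 genes with an unadjusted limma p under 0.05 in any comparison, by group (horizontal axis). Each point is 1 array, marker shapes separate probe sets (circles the brightest), and horizontal lines are means of 2 arrays. In ATF5 the Wnt3a arrays lie lowest in both probe sets, and in DDIT4 and HSPA4 the SET8 arrays lie highest in every probe set.

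Among the 10 endoplasmic reticulum chaperones and folding enzymes, 6 were higher and 4 lower with SET8 shRNA, with a median of 0.06, and 5 of 10 were higher after quantile normalisation or median centring. By the brightest probe sets, only HSPA5 and HSP90B1 had both SET8 arrays above both Wnt3a arrays. PDIA4 and the dim DNAJB9 had both below, where 16.3% and 17.3% of all genes lay above and below. A second, dim DNAJB9 probe set overlapped. HSPA5, or BiP, is the HSP70 of this compartment and the usual readout of the unfolded protein response, and lies on chromosome 9 (chr9:127036952-127043430, hg18). It read 7.97 and 8.23 in the control group, 8.29 and 8.55 in the Wnt3a group, and 9.13 and 8.63 in the SET8 group, so that its 3 groups did not overlap. The difference was 0.31 (SE 0.27) with Wnt3a medium, 0.46 (SE 0.27, limma adjusted p = 0.85) with SET8 shRNA and 0.78 (SE 0.27, adjusted p = 0.37) between the outer groups.

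HSP90B1, or GRP94, the HSP90 of the same compartment, lies on chromosome 12 (chr12:102848318-102865833, hg18). It read 13.02 and 12.71 in the control group, 12.95 and 12.76 in the Wnt3a group, and 13.26 and 13.69 in the SET8 group. The first 2 groups overlapped and both SET8 arrays stood above them, with a difference of 0.62 (SE 0.26, 1.54-fold higher, limma adjusted p = 0.69). Its other probe sets gave 0.46 (SE 0.25) and 0.42 (SE 0.27), also without overlap of the SET8 and Wnt3a arrays. In the latter probe set the SET8 arrays, at 11.70 and 12.16, overlapped the control arrays, at 11.57 and 11.91. Calreticulin (CALR) and calnexin (CANX), the lectins that hold glycoproteins during folding, stood at 0.16 (SE 0.23) and -0.04 (SE 0.26), and the disulfide isomerases PDIA3, PDIA4 and PDIA6 at 0.10, -0.26 and 0.26. Apart from PDIA4 these probe sets overlapped. The other PDIA4 probe sets, at -0.32 (SE 0.36) and -0.11 (SE 0.29), overlapped too. A further probe set of CANX (0.25, SE 0.22) and another of PDIA6 (0.13, SE 0.23) lay above without overlap. The co-chaperone SDF2L1 stood at -0.30 (SE 0.34) and overlapped.

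The ERSE element was searched on both strands as CCAAT, any 9 bases and CCACG. It was in 0.0769% of all windows and in 8 of the 65 windows of the listed genes. These belong to 6 genes, HSPA5, HSP90B1, CALR, CANX, PDIA6 and XBP1. The related ERSE-II element, ATTGG, any base and CCACG, was in 0.0541% of all windows and in 2 of the 65, those of HERPUD1 and SDF2L1. These stretches are shown because the elements mark the genes that ATF6 and XBP1 are known to bind, with the element in capitals. HSPA5 is at chr9:125241371-125241429 (minus strand, element at positions -66 to -48), HSP90B1 at chr12:103930196-103930254 (plus, -194 to -176), XBP1 at chr22:28800583-28800641 (minus, -52 to -34), PDIA6 at chr2:10812833-10812891 (minus, -86 to -68), CALR at chr19:12938364-12938422 (plus, -225 to -207, element on the reverse strand) and HERPUD1 at chr16:56932005-56932055 (plus, -117 to -107, ERSE-II).
HSPA5: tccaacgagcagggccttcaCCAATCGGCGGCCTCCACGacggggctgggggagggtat
HSP90B1: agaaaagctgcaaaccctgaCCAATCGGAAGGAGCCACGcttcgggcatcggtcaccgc
XBP1: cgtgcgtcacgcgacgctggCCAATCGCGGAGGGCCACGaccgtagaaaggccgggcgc
PDIA6: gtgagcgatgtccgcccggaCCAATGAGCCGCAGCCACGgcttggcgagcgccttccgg
CALR: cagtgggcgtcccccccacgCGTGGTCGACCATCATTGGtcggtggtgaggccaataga
HERPUD1: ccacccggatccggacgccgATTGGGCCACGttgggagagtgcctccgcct
HSP90B1 held a second ERSE on the reverse strand at positions -89 to -71. With SET8 shRNA 5 of the 6 genes with an ERSE were higher, with a median of 0.22, where 49.9% of all genes were higher. Both SET8 arrays were above both Wnt3a arrays for 2 of the 6, where 16.3% of all genes were. Between the SET8 and control groups all 6 were higher, with a median of 0.41. In that comparison 33 of the 47 listed genes and 51% of all genes were higher. Both SET8 arrays were above both control arrays for 4 of the 6, for 11 of the 47 and for 20.3% of all genes. The pair with ERSE-II stood at 0.12 and -0.30 with SET8 shRNA. A match is a description of the letters, not of binding.

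Of the 7 sensors and factors, 4 were higher and 3 lower with SET8 shRNA, with a median of 0.12. EDEM1, which sends misfolded glycoproteins to degradation and lies on chromosome 3 (chr3:5204432-5236642, hg18), read 9.29 and 8.69 in the control group, 9.13 and 8.98 in the Wnt3a group, and 9.48 and 10.17 in the SET8 group. The SET8 arrays stood above the other 4, by 0.77 (SE 0.32, 1.7-fold higher, limma adjusted p = 0.69) over the Wnt3a group. A second, dim EDEM1 probe set read 7.56 and 7.26, then 7.42 and 7.68, then 7.37 and 7.60, with no difference beyond its spread (-0.06), so the probe sets of this gene disagree.

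XBP1 read 11.91 and 11.52 in the control group, 12.32 and 11.69 in the Wnt3a group, and 12.17 and 12.20 in the SET8 group. It differed by 0.29 (SE 0.29) with Wnt3a medium and by 0.18 (SE 0.29) with SET8 shRNA, and the groups overlapped in both. The other XBP1 probe sets gave 0.51 (SE 0.36) with SET8 shRNA, without overlap, and 0.22 (SE 0.33), with overlap. The probe sets do not separate the spliced from the unspliced XBP1 mRNA by name. HERPUD1, a part of the degradation complex and a standard readout of the response, read 10.92 and 10.64, then 10.79 and 10.87, then 10.82 and 11.08, a difference of 0.12 (SE 0.24) with SET8 shRNA.

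The probe sets of the sensor ERN1 disagreed in sign. The brightest, annotated to a short transcript at chr17:59559843-59561911 (hg18), stood at -0.62 (SE 0.38) with SET8 shRNA, with overlapping groups, and another of a short transcript there at -0.75 (SE 0.34), without overlap. The probe set of the full transcript (chr17:59474491-59561208) was dim, reading 5.58 and 5.19, then 6.32 and 5.45, then 6.65 and 5.76, a difference of 0.33 with SET8 shRNA and overlapping groups. EIF2AK3 and ATF6 stood at -0.18 (SE 0.47) and -0.02 (SE 0.25), with overlapping groups.

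The 12 cytosolic heat shock genes were divided evenly with SET8 shRNA, 6 higher and 6 lower, with a median of 0.03 and a range from -0.18 to 0.44. By the brightest probe sets, both SET8 arrays were above both Wnt3a arrays for HSPA4 and HSP90AA1, and below for none. Over all genes 16.3% and 17.3% were. The other HSP90AA1 probe sets overlapped, at 0.14, 0.09 and 0.04. A further probe set of HSPA8 (-0.34, SE 0.23) and another of HSPB1 (-0.19, SE 0.23) lay below without overlap, and another of HSPA1A (0.23, SE 0.22) above. HSPA4, a large relative of HSP70 that recharges it with ATP, lies on chromosome 5 (chr5:132415711-132468062, hg18). It read 10.53 and 10.55 in the control group, 10.58 and 10.74 in the Wnt3a group, and 10.92 and 11.29 in the SET8 group. The difference with SET8 shRNA was 0.44 (SE 0.24, limma adjusted p = 0.81), and the other 3 probe sets gave 0.65 (SE 0.25), 0.99 (SE 0.30) and 0.79 (SE 0.41). In all 4 probe sets both SET8 arrays stood above the other 4 arrays.

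The genes induced most by heat showed no common direction. HSPA1A, the inducible HSP70, read 14.86 and 14.23 in the control group, 14.93 and 14.34 in the Wnt3a group, and 14.62 and 14.29 in the SET8 group, a difference of -0.18 (SE 0.32) with SET8 shRNA. A second probe set at the same place gave 0.23 (SE 0.22), and another, named HSPA1A but annotated at chr6:31903666-31906010 (hg18), away from the others at chr6:31891315-31893698, gave -0.05 (SE 0.27). HSPA1A and HSPA1B are near-identical, so these values are uncertain as to which of them was measured. The constitutive HSPA8 read 13.82 and 14.12, then 13.98 and 14.11, then 14.09 and 13.86, a difference of -0.07 (SE 0.24). HSF1 read 13.20 and 12.62, then 13.10 and 12.37, then 12.69 and 13.29, a difference of 0.26 (SE 0.36), with overlap in all groups. DNAJB1, BAG3, HSPB1 and HSPA6, the co-chaperones and small or inducible heat shock proteins, stood at 0.06, 0.19, 0.12 and -0.01.

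A heat shock element, searched on both strands as GAA, TTC and GAA with any 2 bases between, was in 0.49% of all windows. It was in 6 of the 65 windows of the listed genes, those of HSPA8, HSP90AA1, HSP90AB1, HSPA6, DNAJA1 and HSPD1. An inducible and a constitutive example are shown, with the element in capitals on the reverse strand, HSPA6 at chr1:161524446-161524498 (plus strand, -74 to -62) and HSPA8 at chr11:123062159-123062211 (minus strand, -55 to -43).
HSPA6: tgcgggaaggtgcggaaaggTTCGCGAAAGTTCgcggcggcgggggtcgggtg
HSPA8: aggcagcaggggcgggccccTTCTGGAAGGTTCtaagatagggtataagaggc
Of the 6 genes with the element, 2 were higher and 4 lower with SET8 shRNA, with a median of -0.04, where 49.9% of all genes were higher. Between the SET8 and control groups 5 of the 6 were higher, with a median of 0.11. In that comparison 33 of the 47 listed genes and 51% of all genes were higher.

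The 3 mitochondrial chaperones stayed within a narrow range. HSPD1, the chaperonin HSP60, read 12.30 and 12.46, then 12.49 and 12.36, then 12.54 and 12.76, a difference of 0.23 (SE 0.23) with SET8 shRNA, while a second HSPD1 probe set gave -0.13. HSPE1, its co-chaperonin, and HSPA9, the mitochondrial HSP70, stood at -0.20 (SE 0.25) and -0.11 (SE 0.22).

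Between the SET8 and control groups, which differ in both shRNA and medium and share arrays with the other comparisons, 0 of the 44 tested genes passed the adjusted threshold (limma), where 0.0504% of probe sets tested did. The smallest adjusted p among the genes was 0.36. Without adjustment, 5 reached a p under 0.05 as higher (DDIT4, EDEM1, HSPA5, CHAC1 and HSPA4) and 0 as lower, beside 6.47% and 4.42% of genes tested. DDIT4 stood at 0.85 (SE 0.29), EDEM1 at 0.83 (SE 0.32), CHAC1 at 0.74 (SE 0.27) and HSPA4 at 0.57 (SE 0.24). Of the 47 genes 33 were higher and 14 lower, where 51% of all genes were higher, with a median of 0.11 beside 0.01 over all genes. With arrays centred on their medians 25 of the 47 and 42.3% of all genes were higher, and the median over the 47 was 0.02. Both SET8 arrays were above both control arrays for 11 genes and below for 1 (PSPH), where 20.3% and 18.2% of all genes were. The median was 0.25 without SET8 replicate 1 and 0.06 without SET8 replicate 2. ATF5, lower with Wnt3a medium, stood at -0.17 (SE 0.26) in this comparison.

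Probe sets of the same gene often differed. Of the 31 genes with several probe sets, all had the same sign in 16 genes with Wnt3a medium and in 17 with SET8 shRNA. A disagreement in sign of over 0.5 arose for HSPA6 and SLC7A11 with Wnt3a medium and for ERN1 and EDEM1 with SET8 shRNA. For HSPA6 the values with Wnt3a medium were 0.22 and -0.29.

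Part of the spread within a group ran in parallel in both media. Replicate 1 exceeded replicate 2 by over 0.5 in both the control and the Wnt3a group for 7 of the 47 genes (14.9%), BAG3, DNAJB1, HSF1, HSPA1A, EIF2AK3, PSAT1 and DNAJB9, and the reverse held for 6 (12.8%), HSP90AA1, HSPA6, ERN1, DDIT3, SLC7A5 and SDF2L1. Among the 44 tested genes of the list the shares were 13.6% and 13.6%, and over all genes tested 10.9% and 8.75%. By their brightest probe sets, HSF1 and 3 of its target genes therefore sat on the side of replicate 1, and 2 others on the side of replicate 2. Other probe sets did not all follow. A second DNAJB1 probe set read 12.24 and 12.04 in the control group, then 12.42 and 12.17 in the Wnt3a group. Another of HSPA1A read 13.76 and 13.75, then 13.78 and 13.72, and another of HSP90AA1 12.80 and 12.90, then 12.52 and 12.97. A further HSP90AA1 probe set, at 9.30 and 10.07, then 9.20 and 10.06, did follow. In the SET8 group the order was opposite, by any amount, for 6 of the 7 and for 3 of the 6, that is 12.8% and 6.38% of the 47 genes. The same patterns held for 11.4% and 6.82% of the 44 tested genes of the list, and for 8.46% and 5.4% of all genes tested. For BAG3, replicate 1 and 2 read 13.23 and 12.49 in the control group, 13.50 and 12.56 in the Wnt3a group, and 13.10 and 13.34 in the SET8 group. For ERN1, they read 10.24 and 10.83, then 10.18 and 11.01, then 10.28 and 9.67. In both genes the 2 control shRNA groups differed less from each other than their replicates did. In the SET8 group the median of replicate 1 minus replicate 2 over the 47 genes was -0.22, beside 0.00 over all genes on the array.

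**Figure D3:**
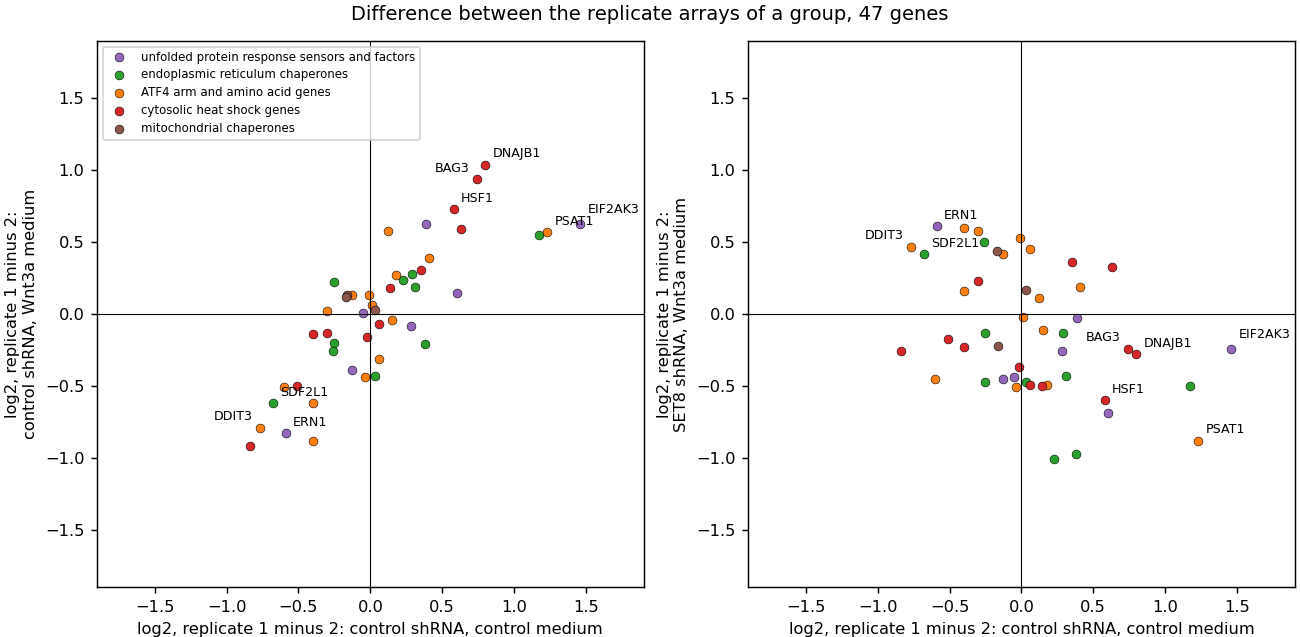
Replicate 1 minus replicate 2 (log2) for the 47 genes, the control group on both horizontal axes against the Wnt3a group on the left and the SET8 group on the right. Each point is 1 gene coloured by role. On the left 34 of the 47 genes (72.3%) lie in the lower left or upper right quadrant, where 77.7% of all genes tested would. BAG3, DNAJB1, HSF1, EIF2AK3 and PSAT1 change side of the horizontal line on the right.

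Further genes of the same programmes, outside the 47, gave few values past an unadjusted p under 0.05, and none with Wnt3a medium. With SET8 shRNA 3.68% of all genes tested were higher at that level and 3.69% lower. Of 31 further amino acid response genes on the array, 29 were tested, and with SET8 shRNA 2 were higher and 2 lower. EIF2AK4 (GCN2), the amino acid sensor upstream of ATF4, read 8.66 and 8.71 in the control group, 8.45 and 8.53 in the Wnt3a group, and 9.80 and 10.32 in the SET8 group, a difference of 1.57 (SE 0.26, limma adjusted p = 0.14). The lipoprotein receptor VLDLR stood at 0.97 (SE 0.22), the proline synthesis enzyme PYCR1 at -1.03 (SE 0.30) and the stress cytokine GDF15 at -0.82 (SE 0.29), so that targets of the same factor lay on both sides. Of 30 further endoplasmic reticulum genes, 27 were tested and 1 was higher with SET8 shRNA, the transcription factor CREB3L2 at 0.56 (SE 0.22), with a median of -0.01 over the 30. Of 26 further heat shock and co-chaperone genes, 24 were tested. HSPA4L, the nearest relative of HSPA4, stood at -0.79 (SE 0.22), opposite to HSPA4, FKBP5 at 0.82 (SE 0.31), and HSPA14 at 0.59 (SE 0.22), though the mean of the HSPA14 probe sets was lower (-0.15). All 17 chaperonin and mitochondrial folding genes were tested and 0 passed that threshold. Between the SET8 and control groups, 6.47% of genes tested were higher at that level and 4.42% lower. There 3 of the further amino acid response genes were higher and 2 lower. In each of the further endoplasmic reticulum and heat shock lists 1 was higher and 1 lower. CBS (0.91, SE 0.22) and DERL3 (-0.65, SE 0.24) reached that level in this comparison alone.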

How the data were processed

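Arrays: per the labels' protocols, HEK293 total RNA was labelled with Cy3 and hybridised to one-colour arrays. The deposited values are linear intensity, 1 per probe set of 3 probes, processed with RMA, per the submitters' processing notes, and the RMA settings are not given in the sources used here. Array files and the table of the whole series held the same values. Log2 was taken with no offset. Gene names were updated by Entrez gene ID with RefSeq (GRCh38.p14), which matched 38916 probe sets (86.4%). Probe set positions are hg18, per the file headers.

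A linear model of 3 group means over the 6 arrays (limma 3.58.1 under R 4.3.3, functions lmFit and eBayes, 3 residual degrees of freedom) was run on the 23808 probe sets above their array's median in at least 2 arrays, with 21225 left out, and was tested on simulated data. Medians over genes used no filter. An exact permutation test of 2 against 2 arrays cannot go below 0.333, so none was run. The number of arrays limits precision. Genes with every array printed were those with an unadjusted p under 0.05 in any comparison and a panel (ATF4, DDIT3, DDIT4, ASNS, TRIB3, CHAC1, HSPA5, HSP90B1, XBP1, HERPUD1, HSPA1A, HSPA8, HSF1, HSPD1). KMT5A checks the labels. The genes, panel and lists were chosen with earlier results of these data known. SLC7A11, ERN1, BAG3 and EIF2AK4 were given in every array after their values were seen. Promoter windows are from RefSeq.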

Additional observations from a re-analysis of the deposited data

How the results depend on the processing

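In every one of the 17 settings tried, 0 of the 47 listed genes passed the adjusted threshold (limma). Among these genes, the 11 differences past an unadjusted p under 0.05 kept their direction throughout, but most settings did not test this. All 11 were between groups without overlap, which fixes the direction when 1 array is left out. Changes of filter, intensity trend, arrays fitted, replicate block or adjusted p threshold leave fold changes as they were. Quantile normalisation, median centring, the offset and the mean of all probe sets did test the direction. With SET8 shRNA, EDEM1 stood at 0.35 over the mean of all probe sets, beside 0.77 in the main fit. Of 54 differences of 18 genes (those named by rule), 29 kept their direction in all settings and 25 did not.

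The number of probe sets called over the whole array did depend on the settings. With Wnt3a medium it was 0 and became 2 with a filter at the 60th percentile, with an offset of 50, with an intensity trend in eBayes or at an adjusted p under 0.1. With SET8 shRNA it was 0 and became 15 with the trend, 31 with only the 4 arrays of the comparison and 19 at an adjusted p under 0.1, and ranged from 0 to 31 when 1 array was left out. Between the SET8 and control groups it was 12 and became 0 without a filter, 52 at the 60th percentile, 6 with quantile normalisation, 56 with the offset, 31 with the trend, 278 with 4 arrays and 156 at an adjusted p under 0.1, and ranged from 0 to 274 when 1 array was left out. The latter was 57 and 5 without control replicate 1 and 2, 274 and 235 without Wnt3a replicate 1 and 2, and 0 without either SET8 replicate. With SET8 shRNA it was 31 without either control replicate, 8 without Wnt3a replicate 1 and 0 without the others. These fits assume that a lone array varies like the other groups.

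The labels number the arrays 1 and 2 in each group, and arrays with the same number correlated in their deviations at 0.75 between the control and Wnt3a groups but at -0.29 between the SET8 group and either of these, so the numbers were not taken as pairs. With the replicate block the probe sets called were 0, 0 and 0 in the 3 comparisons, and since every group holds both numbers the block leaves fold changes and medians as they were. With the SET8 numbers exchanged, chosen after seeing the data, they were 3, 182 and 792.

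The median over the genes with Wnt3a medium was -0.01 with arrays centred on their medians. With SET8 shRNA it was 0.05 over the mean of all probe sets, and -0.01 to 0.21 when 1 array was left out. Between the SET8 and control groups it was 0.02 with centring and 0.06 to 0.25 when 1 array was left out. Centring on array medians turned the difference with Wnt3a medium of EDEM1 (0.00), HERPUD1 (-0.02) and HSPD1 (-0.03), and that between the SET8 and control groups of HSF1 (-0.01) and HSPA8 (-0.08). The mean of all probe sets turned HSPA1A with Wnt3a medium (-0.05) and HSPA8 between the SET8 and control groups (-0.03). Beyond the settings above, the cause of these changes was not tested. When 1 array was left out, differences with Wnt3a medium that turned were those of ASNS (-0.09 to 0.05), DDIT3 (-0.27 to 0.52), DDIT4 (-0.45 to 0.17), EDEM1 (-0.23 to 0.36), HERPUD1 (-0.09 to 0.19), HSF1 (-0.55 to 0.19), HSP90B1 (-0.17 to 0.14), HSPA1A (-0.23 to 0.40), HSPA8 (-0.07 to 0.22), HSPD1 (-0.04 to 0.12), TRIB3 (-0.20 to 0.10) and XBP1 (-0.03 to 0.60). When 1 array was left out, differences with SET8 shRNA that turned were those of ASNS (-0.13 to 0.41), ATF4 (-0.08 to 0.41), HERPUD1 (-0.01 to 0.25), HSF1 (-0.11 to 0.62), HSPA1A (-0.47 to 0.11), HSPA8 (-0.18 to 0.04) and XBP1 (-0.13 to 0.50). When 1 array was left out, differences between the SET8 and control groups that turned were those of ASNS (-0.15 to 0.39), ATF5 (-0.39 to 0.06), HSF1 (-0.23 to 0.38), HSPA1A (-0.41 to 0.22), HSPA8 (-0.14 to 0.16) and TRIB3 (0.00 to 0.57).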
